A study of Rattus norvegicus with 12 samples.

Results

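The glutathione and antioxidant genes of the rat ventral prostate were examined as 1 module of 46 genes among the 14506 genes measured. A gene belonged to it when its symbol named a glutathione transferase (Gst of the alpha, kappa, mu, omega, pi, theta or zeta class, or the microsomal Mgst), a glutathione peroxidase (Gpx, Gpx3 left out), a peroxiredoxin (Prdx), a superoxide dismutase (Sod), a thioredoxin reductase (Txnrd), or was Gclc, Gclm, Gss, Gsr, Cat, Nqo1, Hmox1, Txn1 or Txn2. These genes had 48 probe sets of their own. Gsta4 and Prdx1 had 2 each, and the probe set with the higher mean was used. Another 2 probe sets were shared by Gsta2 and Gsta5 and were left out.

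The series compared 4 groups of 3 arrays from male Wistar rats treated at 90 days of age. Control rats were intact and received corn oil vehicle only. Castrated rats lost their testes under anaesthesia with 150 mg/kg ketamine plus 10 mg/kg xylazine. Estradiol rats were intact and received a single 17β-estradiol dose of 25 mg/kg in corn oil. Combined rats were castrated under the same anaesthesia and received the same estradiol dose. No anaesthetic is listed for control or estradiol rats, so surgery and anaesthesia always went with castration. The ventral prostate was taken 3 days later. The labels do not say whether castrated rats also received vehicle, nor how the arrays relate to single animals. The p-values therefore measure the spread between these arrays, part of which may be technical.

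Glutathione is a small thiol made in sequence by glutamate cysteine ligase and glutathione synthetase. Transferases attach it to reactive compounds, peroxidases use it to reduce hydrogen peroxide and lipid peroxides, and glutathione reductase restores it with NADPH. Peroxiredoxins and thioredoxins form a parallel thiol system, while superoxide dismutases and catalase act on superoxide and hydrogen peroxide directly. In the prostate this enzyme network is known for the silencing of GSTP1 in human prostate cancer. The rat ventral prostate regresses after castration, with loss of secretory epithelium and entry of phagocytes.

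The labelled tissue was checked against its markers. The 10 luminal epithelial markers measured averaged 10.21 to 10.45 on the control arrays, and 6 markers of seminal vesicle and other accessory glands averaged 3.74 to 3.99. The latter averaged 3.51 to 3.75 on castrated, 3.86 to 4.73 on estradiol and 3.62 to 3.68 on combined arrays. Pbsn, which encodes probasin and depends on androgen, was at 11.20 ± 0.61 in controls and 4.63 ± 0.31 after castration (log2 level, mean ± SD, n = 3). Luminal markers also moved as a list: 6 of 10 rose and 1 fell after castration, 4 and 2 after estradiol, and 7 and 1 after both (8 and 1, 2 and 0, and 7 and 2 without estradiol arrays 1 and 2). The estradiol group was not uniform. Pbsn was at 6.28, 4.82 and 9.71 on its 3 arrays, so array 3 was closest to the controls. The combined arrays also differed, with Pbsn at 5.31, 7.45 and 4.88. Semg1, a semenogelin gene of the seminal vesicle, was at 3.40, 2.62 and 9.46 on the estradiol arrays, high on array 3. It was between 2.70 and 3.43 on the castrated, combined and control arrays. The other accessory gland markers did not share this rise. On estradiol array 3 alone the 6 differed from controls by -0.57 to 6.27, Semg1 being the highest, with a median of -0.09. The array quality weights were 0.088, 0.69 and 0.19 for the estradiol arrays, against 0.35 to 4.84 on the others. Estradiol arrays 1 and 2 also stood apart, with an SD over probe sets of 1.93 and 2.01 against 2.24 to 2.30 on the other 10 arrays. Their dimmest 10% of values averaged higher, at 3.41 and 3.34 against 2.69 to 2.84. Their brightest 10% averaged lower, at 9.27 and 9.82 against 10.00 to 10.10. The part of this narrower range in the differences of single dim or bright genes was not tested. Results that rest on estradiol arrays 1 and 2 are given with and without them. Without them the estradiol group is 1 array whose spread is assumed to equal that of the other groups. That lone array 3 is the one with high Semg1, so neither version is taken as the better estimate, and the part of other glands' tissue in these results was not tested. Macrophage and dendritic markers moved with treatment: 12 of 19 rose after castration, 4 after estradiol and 8 after both, with none falling (15, 11 and 14 without estradiol arrays 1 and 2). Their mean level was 6.66 to 7.11 on control arrays, 7.90 to 8.59 on castrated, 7.18 to 8.14 on estradiol and 7.70 to 8.17 on combined arrays. None of these markers was near 0, the lowest single level being about 4. The part of either list in the results below was not tested. In whole tissue, fewer cells of a type and less RNA per cell cannot be told apart.

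Castration changed 12 of the 46 genes, of which 9 rose and 3 fell (limma, Benjamini-Hochberg adjusted p under 0.05 over all genes). Among all genes 5.54% were called in this comparison, 3.17% rising and 2.36% falling; with array medians centred, all-gene calls were 360 rising and 476 falling in place of 460 and 343. The largest rises were in the mu class glutathione transferases Gstm6 and Gstm7 and in the microsomal transferase Mgst1, and the falls were in Prdx5, Gclc and Prdx6. The median difference of the 46 genes was -0.02 on the log2 scale, against 0.01 over all genes. Without estradiol arrays 1 and 2 the count was 16, with 11 rising and 5 falling, where 16.6% of all genes were called, 10.0% rising and 6.6% falling.

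Estradiol in intact rats changed 10 of the 46, with 6 rising and 4 falling. The background was 7.99% of all genes, 2.51% rising and 5.48% falling (364 and 795 genes, but 437 and 542 after quantile normalization). The rises were again led by Gstm6 and Gstm7, and Gclc and Txn1 had the largest falls. The module's median difference was 0.04 beside 0.07 over all genes. Leaving out estradiol arrays 1 and 2 gave 10 calls as well, but with 8 rising and 2 falling, at a background of 5.05% (2.78% rising, 2.27% falling). With only the control and estradiol arrays in the fit, Gstm6 and Gstm7 were the 2 members called. In that fit 197 of all 14506 genes were called, in place of 1159. Without estradiol array 3 the count was 20 (8 rising, 12 falling), at a background of 36.7%. Gstm3, Gstm6, Gstm6l, Gstm7, Gstt2 and Mgst1 then still rose, by 0.72 (Gstm6l) to 1.76 (Gstm6), and Gclc, Prdx2, Prdx6 and Txn1 fell, by 0.68 (Prdx2) to 1.51 (Txn1).

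After both treatments together 10 genes changed, 8 rising and 2 falling, where 4.32% of all genes were called, 2.12% up and 2.21% down (307 and 320 genes, but 248 and 450 with array medians centred). Gstm6, Gstm7 and Mgst1 had the largest rises, and Prdx6 and Gclc were the genes that fell. Median differences were 0.03 for the module and 0.04 for all genes. Without estradiol arrays 1 and 2, whose spread enters the shared error, 17 were called (11 rising, 6 falling) against 14.5% of all genes (7.61% rising, 6.9% falling). The 3 comparisons share the same control arrays, so their lists are not independent of each other. In all, 32 of the 46 genes passed in none of these comparisons, and a test for any difference among the 4 groups (moderated F) called 11 of 46, beside 5.47% of all genes.

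**Figure D1:**
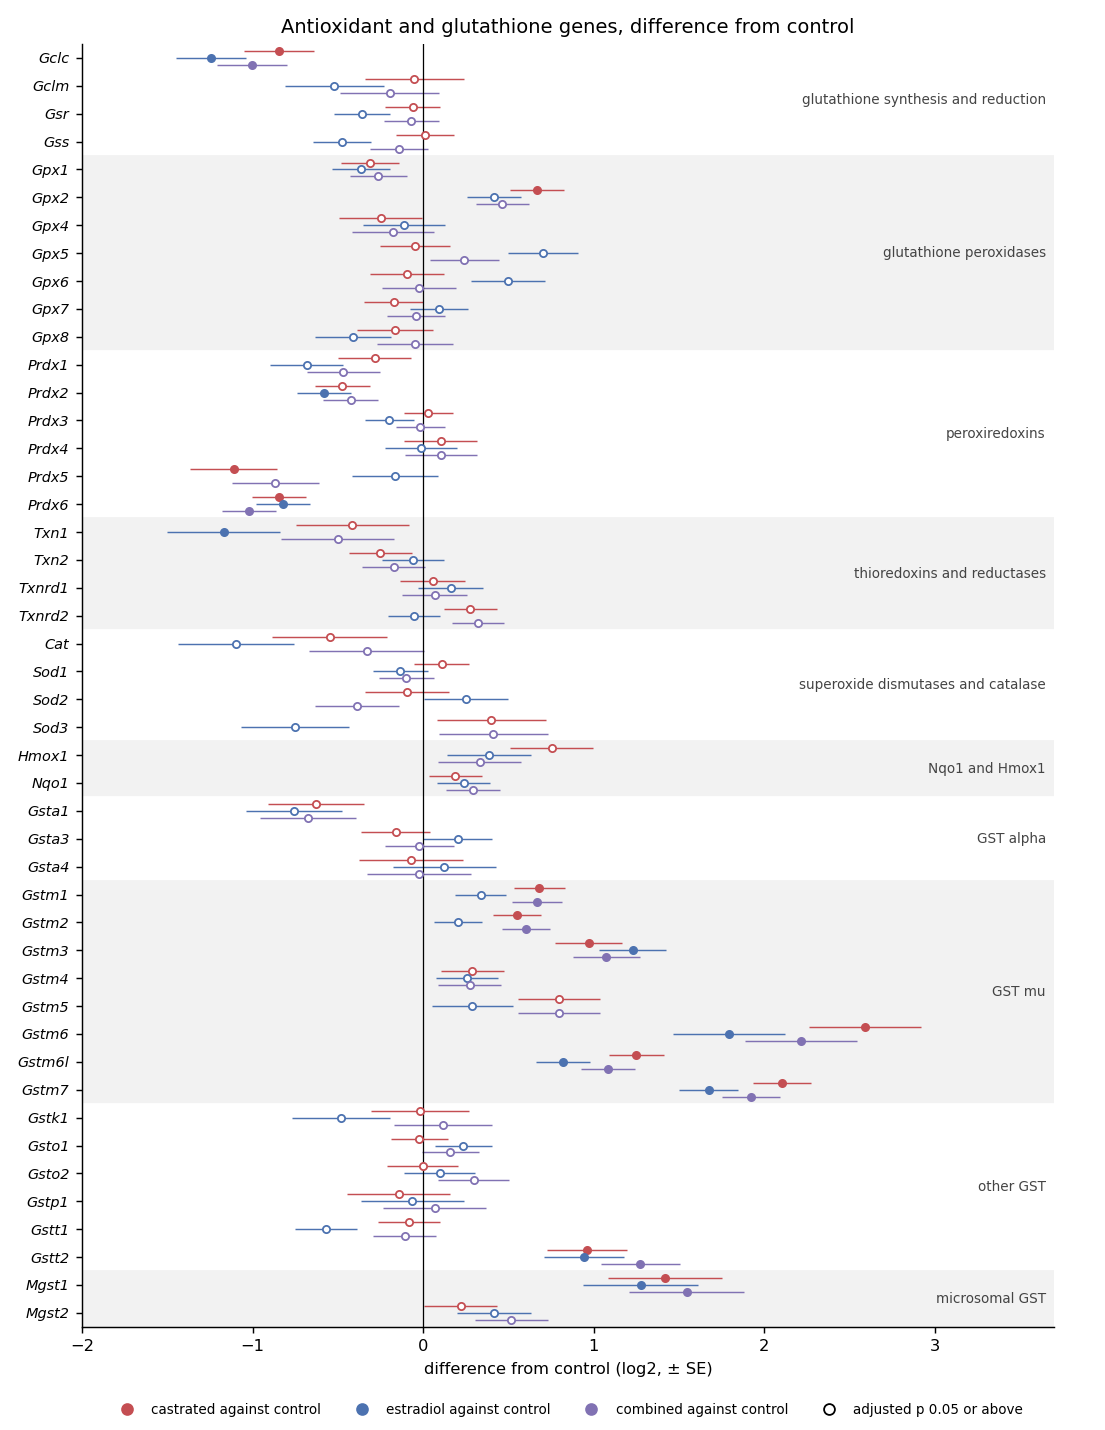
Difference from control of each of the 46 genes on the log2 scale (horizontal axis, ± SE), grouped by enzyme family, after castration (red), estradiol (blue) and both (purple); filled points passed the adjusted threshold. The mu class transferases lie to the right of 0, reaching 2.59 for Gstm6 after castration, and Gclc and Prdx6 lie to the left.

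The mu class transferases are soluble enzymes that conjugate glutathione to electrophiles. Of 8 measured, 6 rose after castration, 4 after estradiol and 6 after both, and none fell. Their median differences were 0.88, 0.58 and 0.93. Without estradiol arrays 1 and 2 the counts were 7, 6 and 7 of 8. The class is a family of close paralogs on chromosome 2, and where they share sequence the signal of a probe set cannot be assigned to 1 paralog.

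Gstm7 (probe set 10825890) had levels of 10.27, 10.93 and 10.50 on the control arrays. They were 12.75, 12.54 and 12.72 after castration, 12.13, 12.22 and 12.37 after estradiol, and 12.42, 12.52 and 12.53 after both. Every treated array lay at least 1.20 above the highest control array. Gstm7 thus rose 4.30-fold after castration (log2 difference 2.11 ± 0.17 SE, limma adjusted p = 9.2e-06), 3.19-fold after estradiol (1.67 ± 0.17, adjusted p = 9.4e-05) and 3.79-fold after both (1.92 ± 0.17, adjusted p = 2.0e-05). Estradiol array 3 alone differed from controls by 1.81.

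Gstm6 (probe set 10825899) varied more between replicates. Its control levels were 7.32, 8.67 and 8.01, against 11.04, 9.99 and 10.74 after castration. It reached 9.43, 10.10 and 9.86 after estradiol and 10.13, 10.02 and 10.51 after both treatments. No treated array overlapped the controls. The rises were 6.01-fold after castration (2.59 ± 0.33, adjusted p = 0.00043), 3.46-fold after estradiol (1.79 ± 0.33, adjusted p = 0.0059) and 4.64-fold after both (2.21 ± 0.33, adjusted p = 0.0014), and 1.86 on the log2 scale for estradiol array 3 alone.

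Gstm6l, a further mu class gene next to Gstm7, stood at 11.07, 11.54 and 11.22 in controls. The castrated arrays were nearly equal at 12.52, 12.50 and 12.56, the estradiol arrays were lower at 11.89, 12.10 and 12.31, and the combined arrays were 12.30, 12.36 and 12.42. It rose by 1.25 ± 0.16, 0.82 ± 0.16 and 1.09 ± 0.16 (adjusted p = 0.00043, 0.0079 and 0.0013). All treated arrays were above all controls. With only the compared arrays in the fit the estradiol rise did not pass (adjusted p = 0.11).

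Gstm3 was dim, and estradiol arrays 1 and 2 were its highest. Its levels lay between 4.52 and 5.02 in controls and 5.86, 5.66 and 5.94 after castration. After estradiol they were 6.30, 6.27 and 5.66, and after both 5.86, 5.95 and 5.96. The gene rose by 0.97 ± 0.20, 1.23 ± 0.20 and 1.07 ± 0.20 (adjusted p = 0.010, 0.0026 and 0.0061). Estradiol array 3 alone gave 0.81. The castration call ended without control array 1 or castrated array 3 (adjusted p = 0.053 to 0.056), and the estradiol call with only the compared arrays in the fit (0.055).

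Gstm1 and Gstm2 rose after castration and after both treatments and did not pass after estradiol with all arrays. Gstm1, which had the highest mean level of the module (12.72 over all arrays), was at 12.33, 12.34 and 12.25 in controls, 13.07, 12.89 and 12.99 after castration, and 13.00, 12.93 and 12.98 after both. The estradiol arrays were spread between these, at 12.42, 12.58 and 12.91. Its differences were 0.68 ± 0.15 (adjusted p = 0.016), 0.67 ± 0.15 (adjusted p = 0.021) and, for estradiol, 0.34 ± 0.15 (adjusted p = 0.15), which became 0.61 (adjusted p = 0.023) without estradiol arrays 1 and 2. Gstm2 rose by 0.55 ± 0.14 and 0.60 ± 0.14 (adjusted p = 0.037 and 0.028) after castration and both, and differed by 0.20 ± 0.14 after estradiol (adjusted p = 0.33).

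These smaller rises depended on single arrays. Both Gstm1 calls ended without any 1 of the control arrays, and without castrated 1 or 3 (adjusted p = 0.055 to 0.079) or any combined array (adjusted p = 0.060 to 0.10). For Gstm2 the same held for each control, castrated and combined array (adjusted p = 0.060 to 0.19) in the castration comparison, and for each control and combined array (0.052 to 0.16) in the combined one. Both Gstm2 calls were also lost with array medians centred (adjusted p = 0.084 and 0.063) and with a trended robust prior (0.070 and 0.056), while quantile normalization made the estradiol differences of Gstm1 (0.66, adjusted p = 0.0037) and Gstm2 (0.52, 0.034) pass. Gstm5 had differences of 0.80 ± 0.24, 0.29 ± 0.24 and 0.79 ± 0.24 that did not pass (adjusted p = 0.075, 0.41 and 0.088). With estradiol arrays 1 and 2 left out it was called in each, at 0.80, 0.75 and 0.79 (adjusted p = 0.0017, 0.037 and 0.0019). Gstm4 differed by 0.29, 0.26 and 0.27 with intervals that included 0 (95% interval after castration, -0.11 to 0.68).

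**Figure D2:**
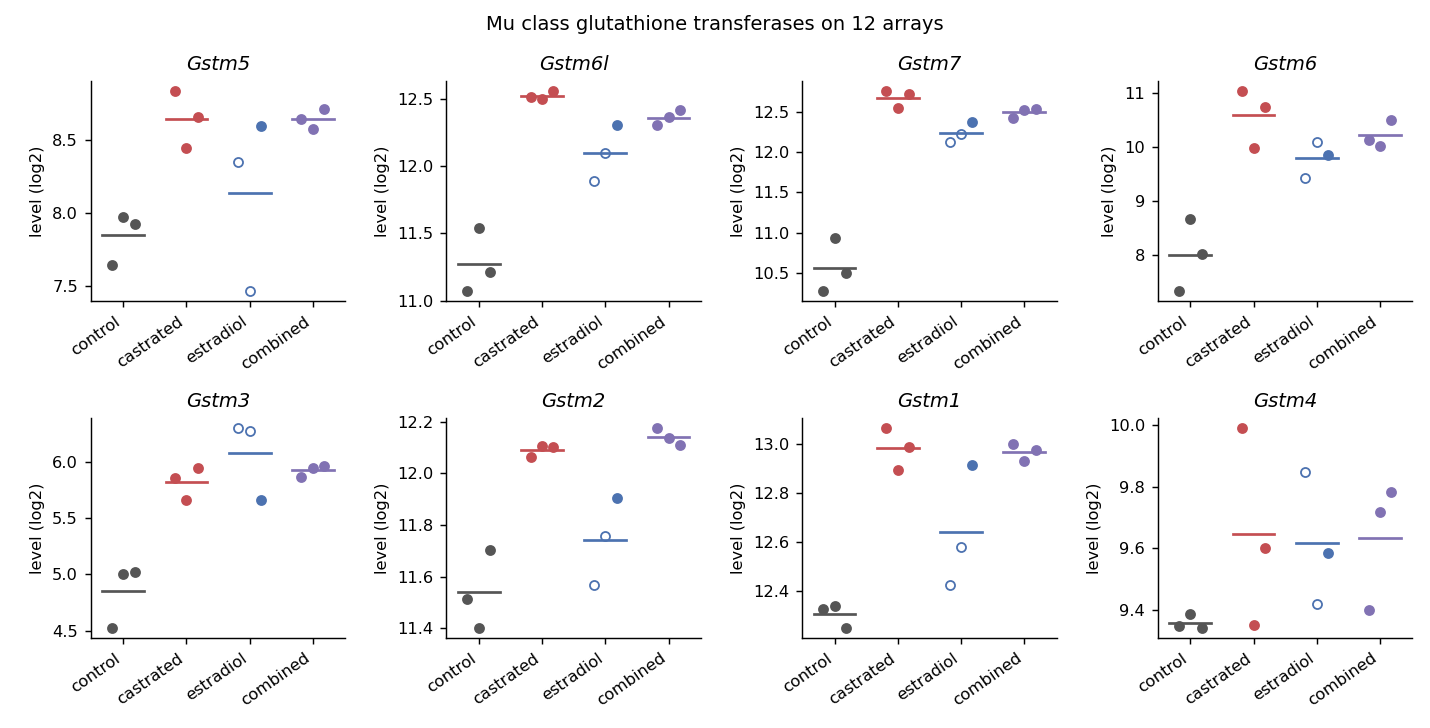
Level of each mu class transferase on the 12 arrays (vertical axes, log2, each with its own range), with a bar at the group mean and open points for estradiol arrays 1 and 2. For Gstm7 the controls lie between 10.27 and 10.93 and all treated arrays at 12.13 or above; for Gstm1 the estradiol arrays spread from 12.42 to 12.91.

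In the gene table the mu class genes follow one another in the order Gstm5, Gstm6l, Gstm7, Gstm6, Gstm3l1 (not measured), Gstm3, Gstm2, Gstm1 and Gstm4. The largest differences were at Gstm7 and Gstm6 in the middle of this order, and Gstm4 at one end did not pass, nor did Gstm5 at the other unless estradiol arrays 1 and 2 were left out. The flanking genes were examined after their values were seen. Eps8l3, next to Gstm5, differed by 0.08, 0.46 and 0.10 and Ampd2, next to Gstm4, by 0.21, 0.25 and 0.30, and neither passed. Gnat2, a transducin subunit of cone photoreceptors that follows Ampd2, rose by 3.72 ± 0.51, 2.50 ± 0.51 and 3.62 ± 0.51 (adjusted p = 0.00080, 0.011 and 0.0010).

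**Figure D3:**
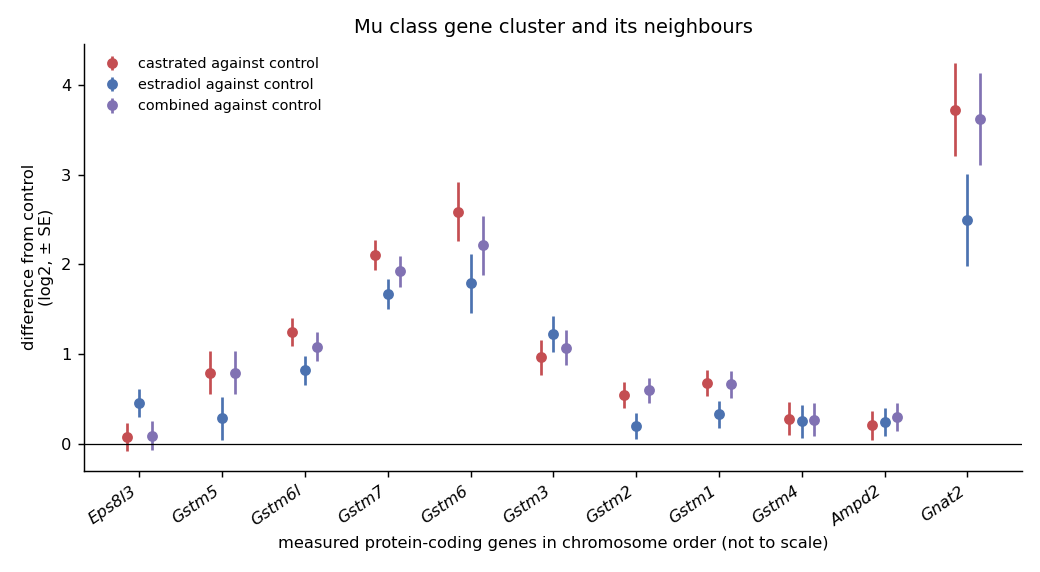
Difference from control (vertical axis, log2, ± SE) of the mu class genes and their measured protein-coding neighbours in chromosome order (horizontal axis, not to scale), after castration (red), estradiol (blue) and both (purple). Within the mu class the values peak at Gstm7 and Gstm6, Ampd2 lies near 0.3, and Gnat2 beyond it reaches 3.72.

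The bases upstream of the start are shown for 4 genes that rose, Gstm7, Gstm6, Mgst1 and Gpx2, and for Gclc, which fell, so that members that moved can be set side by side. They are RefSeq sequences on build GRCr8, each the 250 bases before the start. Capitals mark a match to the antioxidant response element core (TGACNNNGC) or to the AP-1 motif (TGANTCA), searched on both strands. The shorter motif can lie within the longer one.
Gstm7, chr2:198260320-198260569, minus strand: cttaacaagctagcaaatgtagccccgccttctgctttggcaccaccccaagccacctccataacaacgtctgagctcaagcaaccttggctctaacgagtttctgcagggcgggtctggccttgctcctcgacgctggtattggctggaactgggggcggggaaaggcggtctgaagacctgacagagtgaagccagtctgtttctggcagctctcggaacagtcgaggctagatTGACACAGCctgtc
Gstm6, chr2:198272509-198272758, minus strand: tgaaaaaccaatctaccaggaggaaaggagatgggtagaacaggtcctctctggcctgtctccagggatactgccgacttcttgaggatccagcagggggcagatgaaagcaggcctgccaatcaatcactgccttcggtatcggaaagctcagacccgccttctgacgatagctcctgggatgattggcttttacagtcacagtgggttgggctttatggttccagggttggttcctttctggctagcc
Mgst1, chr4:172760680-172760929, plus strand: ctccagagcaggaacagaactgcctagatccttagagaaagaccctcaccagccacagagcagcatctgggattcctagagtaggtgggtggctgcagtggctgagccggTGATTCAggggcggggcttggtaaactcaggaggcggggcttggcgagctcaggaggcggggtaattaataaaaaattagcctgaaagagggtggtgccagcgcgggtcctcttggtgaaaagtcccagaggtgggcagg
Gpx2, chr6:101230034-101230283, minus strand: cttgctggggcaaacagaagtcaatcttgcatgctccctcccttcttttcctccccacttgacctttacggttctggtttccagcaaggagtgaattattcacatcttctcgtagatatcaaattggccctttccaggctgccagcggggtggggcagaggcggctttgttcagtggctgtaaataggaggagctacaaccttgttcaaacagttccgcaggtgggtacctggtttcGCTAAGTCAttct
Gclc, chr8:87510226-87510475, plus strand: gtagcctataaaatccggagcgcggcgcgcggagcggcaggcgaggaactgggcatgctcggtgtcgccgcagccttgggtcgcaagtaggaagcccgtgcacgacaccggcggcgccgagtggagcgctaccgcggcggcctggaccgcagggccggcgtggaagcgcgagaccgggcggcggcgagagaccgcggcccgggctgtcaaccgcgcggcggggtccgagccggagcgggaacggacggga

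The core of the antioxidant response element, the site bound by Nrf2 with small Maf proteins, matched in Gstm7 from base -14 and in Gpx2 from base -13 on the opposite strand, and Mgst1 held an AP-1 match from base -140. The windows of Gstm6 and Gclc held neither motif in these 250 bases. Of the 46 genes, 37 had a window (250 bases before to 50 after the start). The core matched in 11 of these 37 (29.7%), against 12.2% of the 27457 windows of all genes, and the AP-1 motif in 5 (13.5%) against 7.33%. The 11 were Gclm, Gpx2, Gsta1, Gsta3, Gstm5, Gstm7, Gstp1, Prdx1, Prdx4, Prdx5 and Sod2, of which Gstm7, Gpx2 and Prdx5 passed in at least 1 comparison with control. The windows of the mu class genes other than Gstm6l, which had none, were 44.5% to 58.9% identical in gapped pairwise alignment. No windows of other genes were aligned for comparison. A match describes the letters only.

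Among the other transferases, Mgst1 and Gstt2 rose. Mgst1, a membrane-bound enzyme of the endoplasmic reticulum and outer mitochondrial membrane with transferase and peroxidase activity, had control levels of 10.44, 10.24 and 9.57. It reached 11.87, 10.71 and 11.91 after castration, 11.08, 11.05 and 11.93 after estradiol, and 11.85, 11.60 and 11.41 after both. Castrated array 2 was the lowest treated array and still above the controls. The rises were 2.67-fold (1.42 ± 0.33, adjusted p = 0.024), 2.42-fold (1.27 ± 0.33, adjusted p = 0.036) and 2.92-fold (1.54 ± 0.33, adjusted p = 0.018), and estradiol array 3 alone gave 1.85.

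The Mgst1 calls depended on the arrays in the fit. After castration the call ended without control 2 or 3 or castrated 1 or 3 (adjusted p = 0.073 to 0.12), after estradiol without any control or any combined array (0.053 to 0.14), and after both without control 2 or 3 or any combined array (0.054 to 0.10). With only the compared arrays in the fit the estradiol call was also lost (0.10). Its direction was the same each time. Mgst2, which makes leukotriene C4, differed by 0.22, 0.42 and 0.52 and did not pass, except after both treatments when estradiol arrays 1 and 2 were left out (0.031).

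Gstt2, a theta class transferase, stood at 9.25, 9.14 and 9.33 in controls. After castration 2 arrays were at 10.52 and 10.50 and array 2 was at 9.58. The estradiol arrays were 10.32, 9.83 and 10.40 and the combined arrays 10.56, 10.58 and 10.40. It rose by 0.96 ± 0.23, 0.94 ± 0.23 and 1.27 ± 0.23 (adjusted p = 0.028, 0.029 and 0.0063), and no treated array overlapped the controls. The castration call ended without any control array or castrated 1 or 3 (adjusted p = 0.080 to 0.13) and the estradiol call without any control array or estradiol 1 (0.052 to 0.11), or with only the compared arrays in the fit (0.078).

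The remaining transferases did not pass. Gstp1, the pi class enzyme, ranged from 6.68 to 8.03 within the controls alone, and its differences were -0.14, -0.06 and 0.07 (95% interval after castration, -0.79 to 0.51). Differences of the kappa, omega and theta class genes Gstk1, Gsto1, Gsto2 and Gstt1 lay between -0.57 and 0.30. The alpha class had no calls among 3 members. Gsta4, which acts on the lipid peroxidation product hydroxynonenal, differed by -0.07, 0.12 and -0.02, and Gsta3 had the lowest mean level of the module at 2.47. Gsta1 was lower on all treated arrays than on all controls, with differences of -0.63, -0.76 and -0.67 that did not pass (adjusted p = 0.28, 0.099 and 0.26).

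Glutathione synthesis and reduction was represented by 4 genes, of which only Gclc passed in a comparison with control. Gclc is the catalytic subunit of glutamate cysteine ligase, the rate-limiting enzyme of glutathione synthesis. Its control levels were 8.39, 8.53 and 8.44. They were 7.72, 7.71 and 7.39 after castration, 6.67, 7.41 and 7.56 after estradiol, and 7.52, 7.38 and 7.45 after both. Every treated array lay at least 0.67 below the lowest control.

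Gclc fell by 0.85 ± 0.20 after castration (1.80-fold, adjusted p = 0.027), by 1.24 ± 0.20 after estradiol (2.37-fold, adjusted p = 0.0031) and by 1.0 ± 0.20 after both (adjusted p = 0.013). Estradiol array 1 was the lowest, and without arrays 1 and 2 the estradiol difference was -0.90 (adjusted p = 0.0093), while with only the compared arrays in the fit the estradiol call was lost (0.057). Leaving out any 1 control or castrated array ended the castration call (adjusted p = 0.056 to 0.13), and leaving out control 2 or 3 or any combined array ended the combined call (0.050 to 0.071).

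Its partner Gclm, the modifier subunit that lowers feedback inhibition, differed by -0.05, -0.52 and -0.20 and passed in none (95% interval after castration, -0.68 to 0.57). On estradiol array 1 Gclm was at 7.34 while arrays 2 and 3 were at 8.71 and 8.69, beside controls of 8.69 to 8.85. Glutathione synthetase (Gss) differed by 0.01, -0.48 and -0.14 and glutathione reductase (Gsr) by -0.06, -0.36 and -0.07, with no call. Both estradiol values passed without estradiol array 3, with adjusted p = 0.012 for Gss and 0.021 for Gsr, and were -0.19 and -0.07 without arrays 1 and 2.

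Of 7 glutathione peroxidases only Gpx2 was called, after castration. Gpx2 is the epithelial peroxidase best known from the gut. Its levels were 6.31, 6.36 and 6.19 in controls, 7.05, 6.70 and 7.12 after castration, 6.69, 6.67 and 6.74 after estradiol and 6.98, 6.57 and 6.71 after both. All 9 treated arrays exceeded the controls. It rose by 0.67 ± 0.16 after castration (1.59-fold, adjusted p = 0.025), while the estradiol and combined differences of 0.42 and 0.46 did not pass (adjusted p = 0.11 and 0.14), the latter passing without estradiol arrays 1 and 2 (0.047) or with only the compared arrays in the fit (0.025). The castration call ended without any control array or castrated 1 or 3 (adjusted p = 0.076 to 0.12).

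Whether the probe sets of Gpx1 and Prdx1 also read near-identical copies could not be checked. Gpx1, the abundant cytosolic peroxidase, differed by -0.31, -0.36 and -0.26 (adjusted p = 0.43, 0.17 and 0.60). The estradiol value passed without estradiol array 3 (adjusted p = 0.023) and was -0.06 without arrays 1 and 2. Gpx4, which reduces lipid hydroperoxides in membranes, differed by -0.25, -0.11 and -0.18 (95% interval after castration, -0.77 to 0.27). Across Gpx5, Gpx6, Gpx7 and Gpx8 the differences lay between -0.41 and 0.70. The highest was Gpx5 after estradiol (adjusted p = 0.052), at 4.20 and 4.11 on arrays 1 and 2 and 3.46 on array 3, beside controls of 3.10 to 3.35. Gpx5 was dim, at percentile 8.67 of all genes, and the dimmest values averaged higher on estradiol arrays 1 and 2.

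**Figure D4:**
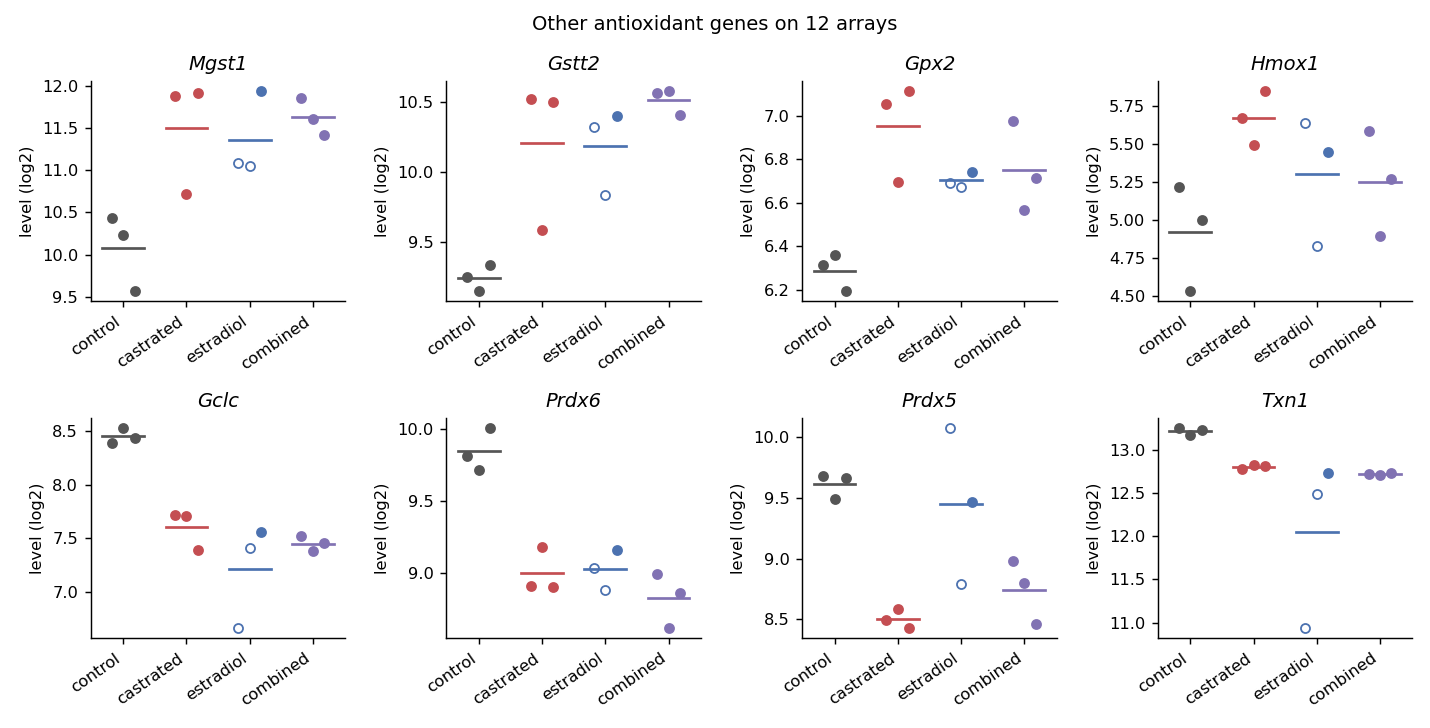
Levels on the 12 arrays (vertical axes, log2, each with its own range) of Mgst1, Gstt2, Gpx2 and Hmox1 in the upper row and Gclc, Prdx6, Prdx5 and Txn1 in the lower row, with bars at group means and open points for estradiol arrays 1 and 2. Gclc and Prdx6 are lower on every treated array than on every control, whereas for Prdx5 the estradiol arrays run from 8.80 to 10.08, and Txn1 has 1 low estradiol array at 10.94.

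The 6 peroxiredoxins had no rise. After castration 2 fell, after estradiol 2 and after both 1, with median differences of -0.38, -0.39 and -0.45. Without estradiol arrays 1 and 2 the counts were 3, 0 and 4. Prdx6, the peroxiredoxin with a single active cysteine that draws on glutathione, was at 9.81, 9.72 and 10.01 in controls. Its levels were 8.91, 9.19 and 8.91 after castration, 9.04, 8.88 and 9.16 after estradiol, and 8.99, 8.62 and 8.86 after both. The treated arrays lay at least 0.53 below the controls.

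Prdx6 fell by 0.85 ± 0.16 (1.80-fold, adjusted p = 0.0065), by 0.82 ± 0.16 (1.77-fold, adjusted p = 0.0078) and by 1.02 ± 0.16 (2.03-fold, adjusted p = 0.0019). The estradiol difference was -0.69 (adjusted p = 0.060) without arrays 1 and 2. It also missed the threshold with only the compared arrays in the fit (0.084) and after quantile normalization (-0.50, 0.099). No single array that was left out ended a call for this gene.

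Prdx5, which is found in mitochondria, peroxisomes and cytosol, fell after castration. It was at 9.68, 9.49 and 9.66 in controls and at 8.49, 8.59 and 8.43 after castration. After both treatments it was at 8.98, 8.80 and 8.46. The estradiol arrays were widely spread, at 10.08, 8.80 and 9.47. It fell by 1.11 ± 0.25 after castration (2.16-fold, adjusted p = 0.021). The combined difference of -0.87 ± 0.25 did not pass (adjusted p = 0.079) and passed without estradiol arrays 1 and 2 (0.0015), and the estradiol difference was -0.17 ± 0.25 (adjusted p = 0.66). Estradiol minus castrated was 0.94 (adjusted p = 0.14), which was not called. The castration call ended without any 1 control or castrated array (adjusted p = 0.053 to 0.085) and after quantile normalization (0.058).

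Prdx2, abundant in red cells and cytosol, was lower on all treated arrays than on all controls. The differences were -0.47, -0.58 and -0.42 ± 0.16, and only the estradiol value passed (adjusted p = 0.12, 0.044 and 0.20). The order of calls was the other way when estradiol arrays 1 and 2 were left out: castrated and combined passed (adjusted p = 0.014 and 0.026) and estradiol, at -0.38, did not (0.22). The estradiol call also ended without any control array, castrated 1 or 3, estradiol 2 or any combined array (0.057 to 0.14), after quantile normalization (-0.24, 0.41), with only the compared arrays (0.21) and with a trended robust prior (0.060).

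Prdx1, its close cytosolic relative, differed by -0.28, -0.68 and -0.47 without a call. Its estradiol value passed without estradiol array 3 (adjusted p = 0.019), and its combined value passed without arrays 1 and 2 (0.048). The mitochondrial Prdx3 differed by 0.03, -0.20 and -0.02 and Prdx4, of the endoplasmic reticulum, by 0.10, -0.01 and 0.10. Their 95% intervals after castration were -0.28 to 0.34 and -0.36 to 0.56.

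Thioredoxin (Txn1), the cytosolic dithiol that recharges peroxiredoxins, had 1 estradiol array far below the others. Its levels were 13.26, 13.18 and 13.23 in controls, 12.78, 12.83 and 12.81 after castration, and 12.72, 12.72 and 12.73 after both. On the estradiol arrays it was 10.94, 12.49 and 12.74. The brightest values averaged lower on estradiol arrays 1 and 2, and Txn1 was bright, at percentile 99.9 of all genes. All treated arrays were below all controls. It fell by 1.17 ± 0.33 after estradiol (2.25-fold, adjusted p = 0.048), whereas the castrated and combined differences of -0.42 and -0.50 did not pass with all arrays (adjusted p = 0.68 and 0.62). Leaving out estradiol array 1, its lowest, gave -0.61 and did not end the estradiol call.

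Without estradiol arrays 1 and 2 the 3 differences of Txn1 passed, at -0.42 (adjusted p = 0.0071), -0.49 (0.043) and -0.50 (0.0029). The estradiol call over all arrays ended without any 1 control, castrated or combined array (adjusted p = 0.062 to 0.14), with array medians centred (0.050), after quantile normalization (-0.71, 0.13) and with only the compared arrays (0.23). The mitochondrial thioredoxin Txn2 differed by -0.25, -0.06 and -0.17, the cytosolic reductase Txnrd1 by 0.06, 0.16 and 0.07, and the mitochondrial reductase Txnrd2 by 0.28, -0.05 and 0.32. None of these passed.

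The superoxide dismutases and catalase had no call in any of the comparisons with control under limma, where 0, 2 and 0 of 4 had an unadjusted p under 0.05, as had 16.1%, 30.2% and 14.7% of all genes. Catalase (Cat), the peroxisomal enzyme that splits hydrogen peroxide, was at 10.75, 10.88 and 10.71 in controls and at 8.80, 9.77 and 10.47 after estradiol. The brightest values averaged lower on estradiol arrays 1 and 2, and Cat was bright, at percentile 97.2 of all genes. Its estradiol difference was -1.10 ± 0.34 (adjusted p = 0.062). That value passed without estradiol array 3 (0.0042) and was -0.31 (0.68) without arrays 1 and 2. After castration Cat was at 9.66, 10.38 and 10.66, all below the controls, with a difference of -0.55 (95% interval, -1.28 to 0.18).

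Sod1, the cytosolic copper and zinc enzyme, differed by 0.11, -0.13 and -0.10, with a 95% interval of -0.24 to 0.46 after castration. The mitochondrial Sod2 differed by -0.10, 0.25 and -0.39. Extracellular Sod3 was at 6.93, 7.71 and 7.87 after estradiol, below the controls at 8.05 to 8.37, and at 8.75, 7.90 and 9.31 after castration. Its differences of 0.40, -0.75 and 0.41 did not pass (adjusted p = 0.68, 0.14 and 0.71).

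Nqo1 and Hmox1 are standard targets of Nrf2 and had no call. Nqo1, a quinone reductase, differed by 0.19, 0.24 and 0.29 (95% intervals -0.15 to 0.52, -0.10 to 0.57 and -0.04 to 0.63). It was dim, with a mean level of 4.44 at percentile 19.7 of all genes, where a change may be missed. Hmox1, which degrades haem and is high in macrophages that take up red cells, was at between 4.53 and 5.22 in controls and at 5.67, 5.50 and 5.85 after castration, which did not overlap. Its difference of 0.75 ± 0.25 did not pass with all arrays (adjusted p = 0.10) and passed without estradiol arrays 1 and 2 (0.025). The estradiol and combined differences were 0.39 and 0.33. Of 19 macrophage markers, 12 rose after castration, 4 after estradiol and 8 after both, with median differences of 1.48, 0.54 and 1.20. On estradiol array 3 alone their median was 1.24, and Hmox1 differed by 0.53. The part of macrophages was not tested.

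**Figure D5:**
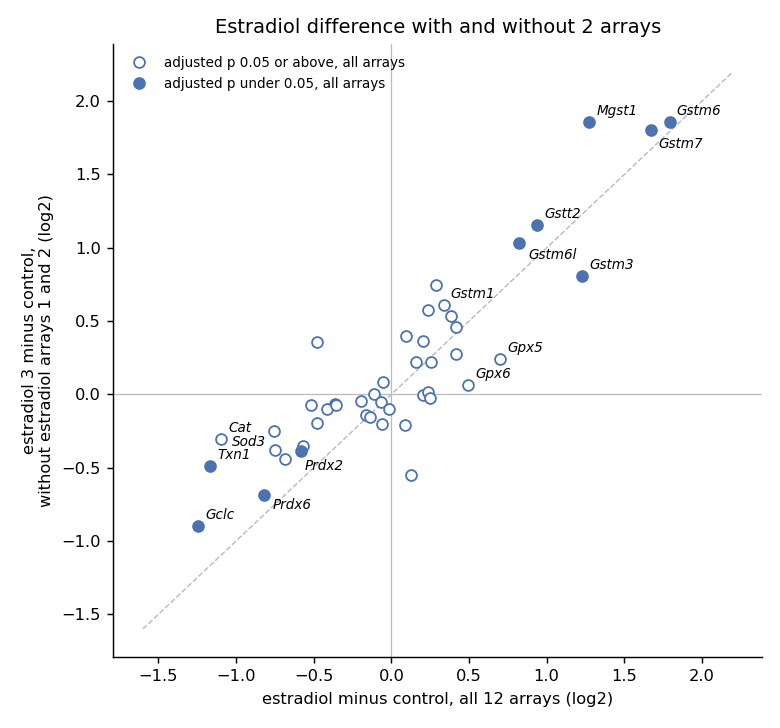
Estradiol minus control for the 46 genes over all 12 arrays (horizontal axis, log2) and without estradiol arrays 1 and 2 (vertical axis, log2), with the dashed line of equal values; filled points passed over all arrays. Gstm6 and Gstm7 keep values of 1.86 and 1.81, while Cat moves from -1.10 to -0.31 and Txn1 from -1.17 to -0.49.

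The treated groups were then compared with each other, which asks what estradiol adds after castration, what castration adds under estradiol, and how the single procedures differ. Limma called 0 of the 46 genes for combined against castrated, for combined against estradiol and for estradiol against castrated, and 0.0% of all genes in each. The counts that involve estradiol hang on estradiol array 3: without it 13 of 46 (28.3%) were called for combined against estradiol and 17 (37.0%) for estradiol against castrated, beside 28.6% and 37.3% of all genes. At an unadjusted p under 0.05 there were 0, 10 and 12 of 46, where 1.05%, 18.9% and 27.3% of all genes had one. Combined minus castrated differences lay between -0.42 (Hmox1) and 0.31 (Gstt2). For Gstm7 the interval of this difference was -0.55 to 0.19 and for Mgst1 -0.60 to 0.85. The widest differences involving the estradiol arrays were those of Sod3, 1.16 for combined minus estradiol and -1.15 for estradiol minus castrated (adjusted p = 0.24 and 0.14), which were 0.79 and -0.78 without estradiol arrays 1 and 2.

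The interaction, defined as the effect of estradiol in castrated rats minus that in intact rats, was called for 2 of the 46 genes, beside 1.1% of all genes (0.779% with a positive and 0.317% with a negative value). For Gstm7 estradiol added 1.67 in intact rats and -0.18 in castrated rats, an interaction of -1.85 ± 0.24 (adjusted p = 0.0019). For Gstm6 the corresponding values were 1.79 and -0.37, giving -2.17 ± 0.46 (adjusted p = 0.044). Gstm7 kept its call in each of 20 alternatives. Gstm6 did not pass without estradiol arrays 1 and 2 (-2.23, adjusted p = 0.066), nor without control 1 or 3, castrated 1 or 3, estradiol 2 or any combined array (0.066 to 0.14). Gstm6l had an interaction of -0.99 that missed the threshold (adjusted p = 0.058) and passed without estradiol arrays 1 and 2 (-1.20, adjusted p = 0.015).

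Other genes of the pathway were read from 8 lists. Their median differences lay between -0.10 and 0.07 after castration, -0.25 and 0.18 after estradiol, and -0.11 and 0.11 after both, beside 0.01, 0.07 and 0.04 over all genes. Around glutathione supply, transport and turnover, 25 genes were measured. After castration 1 rose and 2 fell, after estradiol 1 rose and 5 fell, and after both 1 rose and 1 fell. Abcc3, a pump that exports glutathione and glucuronide conjugates, was at 6.54, 6.10 and 6.54 in controls and at 9.10 to 10.12 on every treated array. It rose by 3.06 ± 0.24, 2.83 ± 0.24 and 3.33 ± 0.24 (adjusted p = 7.7e-06, 1.8e-05 and 4.6e-06). Slc7a11, the cystine transporter that feeds glutathione synthesis, was at 5.47, 6.30 and 5.46 in controls and at 3.50 to 4.43 on the treated arrays. It fell by 1.79 ± 0.25, 1.94 ± 0.25 and 1.59 ± 0.25 (adjusted p = 0.00094, 0.00062 and 0.0026), and its estradiol difference was -1.48 without arrays 1 and 2. Slc1a4, a neutral amino acid transporter, fell by 1.27 after estradiol (adjusted p = 0.014), but its value without arrays 1 and 2 was -0.92 (0.16).

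Thiol repair comprised 19 genes, with 3 rising and 2 falling after castration, 1 and 3 after estradiol, and 2 and 2 after both. Sesn3, a sestrin, rose by 1.59 ± 0.17, 1.24 ± 0.17 and 1.55 ± 0.17 (adjusted p = 0.00012, 0.00098 and 0.00016). Msrb1, a selenoprotein that reduces oxidised methionine, fell by 0.83, 0.94 and 0.68 (adjusted p = 0.013, 0.0065 and 0.047), with an estradiol value of -0.61 (0.055) without arrays 1 and 2. Glutaredoxin (Glrx) was at 6.99, 9.69 and 10.10 after estradiol against 11.03 to 11.13 in controls. It fell by 2.16 there (adjusted p = 0.033), and by 0.98 (0.0069) when arrays 1 and 2 were left out.

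NADPH, the electron donor of both thiol systems, is supplied by several enzymes, and 16 genes of its list were measured. They included the ferritin gene Fth1, which stores iron and supplies no NADPH. After castration and after both treatments 1 rose and 2 fell, and after estradiol 2 fell. Mthfd2, a mitochondrial folate enzyme, fell by 1.18, 1.17 and 1.20 (adjusted p = 0.0014, 0.0017 and 0.0013). Idh1, the cytosolic isocitrate dehydrogenase, rose by 0.80 and 0.61 after castration and both (adjusted p = 0.0079 and 0.041) and differed by 0.32 after estradiol (0.18). Malic enzyme (Me1) fell by 1.34 after estradiol (adjusted p = 0.047), which was -0.97 (0.15) without arrays 1 and 2.

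Of 28 regulators and further targets of Nrf2, 1 rose and 2 fell after castration and after both, and 1 fell after estradiol. The rising gene was the iron exporter ferroportin (Slc40a1), by 1.46 and 1.45 (adjusted p = 0.010 and 0.012), and it differed by 0.22 after estradiol (0.61). Macrophages express ferroportin strongly. Their markers had median differences of 1.48, 0.54 and 1.20 after castration, estradiol and both, and 1.24 on estradiol array 3 alone. On that array the highest difference of this list was 0.71. The part of macrophages was not tested. Carboxylesterase Ces1d fell by 1.55, 1.54 and 1.91 (adjusted p = 0.0021, 0.0026 and 0.00047), and carbonyl reductase Cbr3 by 1.31 and 1.18 after castration and both (0.0017 and 0.0037).

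No gene rose among 17 selenoproteins and their synthesis factors, while 3, 4 and 3 fell. Selenok and Selenos, both membrane proteins of the endoplasmic reticulum, fell by 1.34, 1.35 and 1.30 and by 1.06, 0.89 and 0.96, with adjusted p between 0.0018 and 0.0068. Selenoi, a phospholipid synthesis enzyme, fell by 0.99 after estradiol (adjusted p = 0.048), a value of -0.39 (0.34) without arrays 1 and 2. Of 15 peroxisome biogenesis genes 1 fell in each comparison, Pex11a, which promotes peroxisome division, by 1.11, 1.14 and 1.11 (adjusted p = 0.00050, 0.00046 and 0.00054).

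The 13 genes of metal handling had no call after castration or both under limma, where 2 and 5 had an unadjusted p under 0.05. Of all genes 16.1% and 14.7% had one. After estradiol the metallothionein Mt2A rose by 0.96 (adjusted p = 0.022) and hepcidin (Hamp) by 0.89 (0.0067). The transferrin receptor Tfrc fell by 1.81 (0.018), and by 1.42 (0.014) without arrays 1 and 2. Among 28 sources of reactive oxygen 2 rose and 2 fell after castration, 4 fell after estradiol, and 1 rose and 1 fell after both. Cybb, the catalytic subunit of the phagocyte NADPH oxidase and itself a macrophage marker, rose by 1.98 ± 0.38 and 1.48 ± 0.38 after castration and both (adjusted p = 0.0083 and 0.047). Its estradiol difference was 0.80 (0.18), and 1.85 (0.0058) for array 3 alone. Aox3, an aldehyde oxidase, fell by 1.28 after castration (0.046), and squalene epoxidase (Sqle) fell by 1.11 and 1.10 after estradiol and both (0.0063 and 0.0073).

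Without estradiol arrays 1 and 2 the estradiol calls on these lists were 1 rise and 1 fall for glutathione supply, 3 and 1 for thiol repair, 0 and 1 each for NADPH supply, Nrf2 targets and peroxisome genes, 0 and 2 for selenoproteins, 3 and 1 for metals, and 2 and 1 for sources of reactive oxygen. In the castration comparison they were then 4 and 4, 3 and 4, 2 and 4, 3 and 5, 1 and 1, 1 and 4, 1 and 2, and 5 and 3, in the order supply, thiol repair, NADPH, Nrf2, peroxisome, selenoproteins, metals and reactive oxygen. For both treatments the counts in that order were 4 and 4, 4 and 5, 2 and 4, 2 and 4, 1 and 1, 1 and 4, 3 and 1, and 4 and 2. In that fit calls for castration and for both also became more frequent over all genes, by the shares given above. The list counts are to be read beside those shares and the list sizes. For castration and for both, Fth1 was among the falls on the NADPH list and on the Nrf2 list. With all arrays the interaction passed for 6 genes of the lists. It was negative for Abcc3 (-2.56, adjusted p = 0.0019) and Sesn3 (-1.29, 0.022). It was positive for Slc7a11 (2.15, 0.011), Pex11a (1.14, 0.017), Selenok (1.39, 0.040) and Mthfd2 (1.15, 0.045), and Mthfd2 did not pass without estradiol arrays 1 and 2 (0.088).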

How the data were processed

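The 12 arrays were read from 1 value table of 29214 probe sets. The deposited values were taken as log2 levels from their range; per the submitters' processing notes the authors used Affymetrix Expression Console, and the sources used here name neither the normalization nor the build. A gene with several promoter windows was read from the first. Of the probe sets, 15310 had 1 gene symbol, 323 several and 13581 none, and 1 probe set per gene (highest mean) left 14506 genes. Differences were fitted with limma 3.58.1 in R 4.3.3 (lmFit, eBayes, 4 group means, 8 residual and 5.29 prior degrees of freedom), 2-sided, with Benjamini-Hochberg adjustment over all genes at 0.05. The procedure was run on simulated data for castrated against control only. There each gene had the same spread on all arrays, so the uneven estradiol arrays were not covered. "Rose" and "fell" mean that the limma test passed. The median standard error of a difference was 0.19, which depends on the spread within all 4 groups and on the number of arrays. Correlations of same-numbered arrays exceeded 0.1 in 7 of 18 pairs. For castrated and estradiol arrays all 3 did (0.14, 0.28 and 0.20), which counts as paired, and that comparison had 0 member calls with and without the replicate block. The numbers did not pair the other groups. Alternatives were median centring, quantile normalization, only the compared arrays, array weights, a replicate block, the mean over probe sets, a filter on dim genes, a trended robust prior, and leaving out arrays.

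The members and gene lists were chosen with earlier results of these data known. Genes named are members that passed a test, a panel of antioxidant enzymes, the members with the highest and lowest mean level, and up to 3 genes per list with the largest differences among those that passed. Gsta1, Gstk1, Gsto1, Gsto2, Gstt1, Gpx6, Gpx7, Gpx8, Gstm4, Gstm5, Mgst2, Gpx5, Eps8l3, Ampd2 and Gnat2 were named outside that rule. Gene names, their order and sequences are from RefSeq (GRCr8). Protein sequences were not used here.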

Additional observations from a re-analysis of the deposited data

Results flagged for a closer look

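Gstm6 and Gstm7 were singled out because the effect of estradiol differed between castrated and intact rats in limma's interaction test. For Gstm6 the effect in castrated minus that in intact animals was -2.165 on the log2 scale (adjusted p = 0.044), and for Gstm7 it was -1.854 (adjusted p = 0.0019). Single values were not tested for outliers, since each group has 3 arrays.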

How the results depend on the processing

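Each count of genes called among the 46 was recomputed under 21 alternatives (20 for the interaction and the test for any difference). With array quality weights, 489 of all 14506 genes were called for combined against estradiol and 1627 for estradiol against castrated. The interaction then had 1051 and any difference 5306. Member counts with these weights were 21 for castrated, 22 for combined, 1 for combined against estradiol, 5 for estradiol against castrated, 7 for the interaction and 25 for any difference. With only the compared arrays in the fit they were 2 for estradiol and 20 for combined against control, and without estradiol arrays 1 and 2 the combined count was 17. With the replicate block the interaction had 1 call, and the block moved no other count by over 1.5 times; it ended the calls of Gstm6 for the interaction (adjusted p = 0.055) and Gstm2 after castration (0.051) and gave calls to Hmox1 after castration (0.017) and Cat after estradiol (0.034). Leaving out 1 array at a time gave 4 to 15 calls for castrated, 6 to 20 for estradiol, 6 to 14 for combined, 0 to 13 for combined against estradiol, 0 to 17 for estradiol against castrated, 1 to 8 for the interaction and 4 to 22 for any difference. The highest of these for estradiol, both comparisons of estradiol with treated groups, the interaction and any difference came without estradiol array 3, where 36.7%, 28.6%, 37.3%, 11.6% and 34.1% of all genes were called for estradiol against control, combined against estradiol, estradiol against castrated, the interaction and any difference. Over all 14506 genes, leaving out 1 array gave 361 to 1783 calls for castrated and 265 to 1484 for combined. For estradiol it gave 390 to 5329. Combined against castrated had 0 member calls throughout. The cause was not tested.

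Over all genes the calls for castrated, estradiol and combined against control were 803, 1159 and 627. They were 1872, 197 and 2871 with only the compared arrays and 3788, 2307 and 4134 with array quality weights. Without estradiol array 3 the estradiol calls were 5329 (2856 rising, 2473 falling, in place of 364 and 795).

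Of 34 calls of single members, 13 held in every alternative: Gstm6, Gstm6l, Gstm7 and Prdx6 after castration, Gstm6 and Gstm7 after estradiol, Gstm3, Gstm6, Gstm6l, Gstm7, Gstt2 and Prdx6 after both, and Gstm7 for the interaction. Over 2101 recomputed values of named genes 1926 kept their side of the threshold, 123 lost a call, 52 gained one and 0 reversed a called direction.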

Other observations

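The 2 probe sets shared by Gsta2 and Gsta5, which were outside the module, had levels between 3.33 and 4.93 and no call in any comparison. The 3.72 rise of Gnat2 beyond the mu class genes after castration was larger than that of any member, where Gstm6 at 2.59 had the highest value.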
